A study of Homo sapiens with 5 samples.

Results

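The transcripts described here carry the nonsense-mediated decay label of GENCODE v44, the gene annotation of the human genome build GRCh38. A transcript was taken as a member when it had this label and at least 10 reads in at least 2 of 5 libraries. GENCODE v44 holds 21384 transcripts of this type, and 16151 of them were listed in the tables. Of those, 7046 had no read in any library, 6855 had reads but stayed below the minimum, and 2250 in 1737 genes were members. The members stood among 31758 human transcripts that passed the same minimum, out of 227911 transcripts listed. The minimum was reached in all 5 libraries by 1335 members and in exactly 2 by 282, and a member that reached it only where it was high had to differ between libraries.

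The libraries measured polyadenylated RNA of NCI-H1975 and HCC827, established human cell lines derived from lung adenocarcinoma, as PCR-amplified cDNA on a nanopore sequencer. RNA of NCI-H1975 with spike-in transcripts called sequins (mix A) and RNA of HCC827 with sequins of mix B were combined by mass. HCC827 made up 0, 25, 50, 75 or 100% of the mass in libraries named by the NCI-H1975 to HCC827 ratio: 100:0 first, then 75:25, 50:50 and 25:75, with 0:100 last. Each ratio had 1 library, and all drew on 1 RNA preparation per line, so no value has a replicate and every test compares these preparations. Cells of both lines grew in the same medium, and the labels name no drug, so the series shows which transcripts follow the mixing of the RNAs.

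Nonsense-mediated decay is a surveillance pathway that degrades messenger RNA on which a ribosome stops too early. In mammalian cells the cue is an exon junction complex, a protein mark left by splicing, that still sits on the RNA downstream of the stop codon. UPF1 and its partners read that cue, and SMG proteins then recruit the enzymes that cut and digest the RNA. Many splicing regulators use the pathway to limit their own amount by including a poison exon, which holds a stop codon, or by splicing inside the 3' untranslated region. The label in the annotation is assigned from the position of the stop codon, and decay itself was not measured here.

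The routes by which a stop codon comes to lie upstream of an exon junction can be read in the sequence of the exon that holds it. In each sequence below, read 5' to 3' on the transcript's strand from GRCh38, the stretch runs from the start of that exon to the annotated stop codon, which is in capitals. HNRNPL-202 and SRSF7-204 are shown as poison exons, since their stop lies in an exon that other transcripts of the gene skip. HNRNPL-202 ends its frame in exon 7 of 14 (chr19:38841624-38841682, minus strand), and SRSF7-204 in exon 4 of 9 (chr2:38749319-38749346, minus strand). TMEM219-207 (chr16:29971408-29971545, plus strand) and HNRNPA2B1-203 (chr7:26192516-26192577, minus strand) use the stop of a protein-coding transcript and have introns after it. SUN1-222 (chr7:886569-886639, plus strand) stops in an exon that the annotation also assigns to the neighbouring gene GET4.
HNRNPL-202: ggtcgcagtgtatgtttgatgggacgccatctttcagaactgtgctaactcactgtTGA
SRSF7-204: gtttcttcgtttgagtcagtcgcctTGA
TMEM219-207: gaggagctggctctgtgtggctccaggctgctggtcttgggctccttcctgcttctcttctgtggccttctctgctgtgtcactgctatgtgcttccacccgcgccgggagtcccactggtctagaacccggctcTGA
HNRNPA2B1-203: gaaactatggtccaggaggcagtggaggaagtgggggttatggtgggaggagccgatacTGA
SUN1-222: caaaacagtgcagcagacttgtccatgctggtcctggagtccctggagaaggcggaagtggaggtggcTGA
In SRSF7-204 the frame ends 28 bases into an exon of 449 bases, and in HNRNPL-202 it ends 59 bases into an exon of 70 bases.

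Over the members, 2249 had an annotated stop codon, and in 2246 it lay more than 50 bases upstream of the last exon junction. The median distance was 538 bases, with quartiles of 218 and 1176, and the median member had 4 junctions after its stop. In 1174 members the stop lay inside an exon of a protein-coding transcript of the gene, untranslated parts included, without being that transcript's stop. Frame and start were not compared in forming this group. In 526 it lay in an exon outside the coding transcripts, and for 390 of those the exon was a cassette, with a median length of 120 bases, that coding transcripts skip. The cassette length was not a multiple of 3 bases for 259 of the 390. A further 238 members stopped in a lengthened form of an exon of a coding transcript, and 311 kept the stop of a protein-coding transcript. Members that kept that stop had it closest to the last junction, as the plot of stop positions shows.

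**Figure D1:**
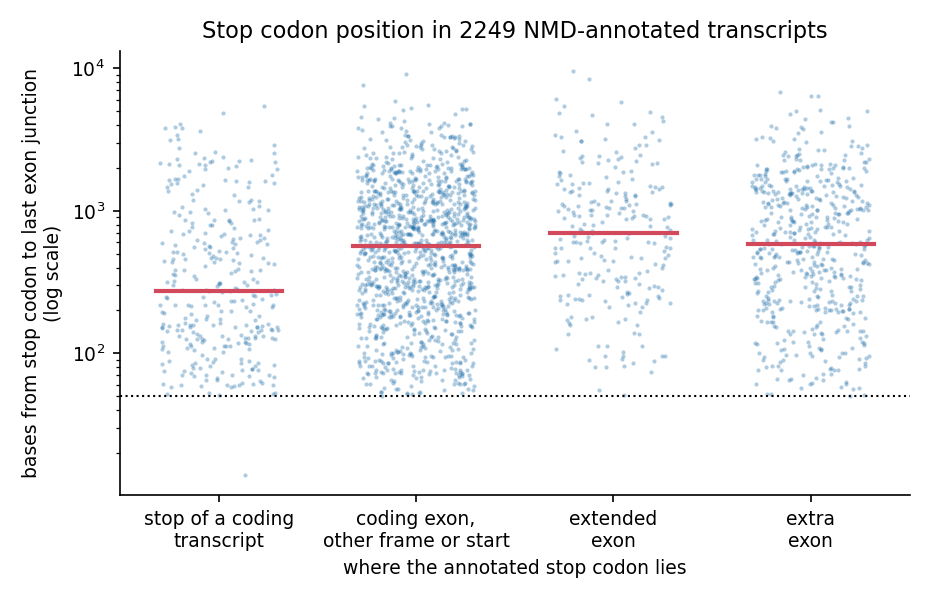
Distance in bases (log scale) from the annotated stop codon to the last exon junction, for 2249 members grouped by where the stop lies; each point is a transcript, red bars are medians and the dotted line marks 50 bases. Nearly all points lie above the line, with 3 exceptions, and the group with the stop of a coding transcript sits lowest. The group labelled coding exon, other frame or start holds stops inside any exon of a coding transcript, and frame and start were not compared.

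The reading frame of the median member was 113 codons long, against 443 for the protein-coding transcript with most reads of the same gene, called the main coding transcript below. A frame shorter than that transcript's was annotated for 2009 members. The start codon was one that a protein-coding transcript also uses in 1721 of the 1807 members with an annotated start, and 443 members were flagged as having an incomplete start. The stop codon was TGA in 1310 members (58.2%), TAA in 511 (22.7%) and TAG in 428 (19.0%).

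How far a member can be told from other transcripts limits every value below. An intron found in no other annotated transcript was present in 1595 members, whereas 509 had no intron and no base of their own. Exons of another gene on the same strand covered at least 100 bases of 349 members. Among the 140 members with at least 100 reads in every library, 57 (40.7%) had another tested transcript of the gene within 1.2-fold of their reads in all 5 libraries. The same held for 220 of 613 protein-coding transcripts of the same genes (35.9%). RPS3-206 and RPS3-218 are such a pair, with 1323 and 1302 reads in the 100:0 library, 2293 and 2293 at 75:25, 2695 and 2666 at 50:50, 2633 and 2639 at 25:75, and 3111 and 3130 in the 0:100 library. How reads that match several transcripts were divided is not given in the sources used here, and its part in these near-equal values was not tested.

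Of the libraries, the total reads ran from 2932250 to 4058751 and did not run with the ratio. Mitochondrial transcripts ran from 5.64% of all reads at 100:0 to 8.85% at 0:100, and the read-weighted transcript length from 2579 to 2180 bases. Epithelial markers summed to between 18924 and 42477 reads per library, while leukocyte and endothelial markers summed to at most 4 reads and HBB was at 0. Fibroblast markers summed to 19 to 532 reads, nearly all from COL1A1. VIM, a mesenchymal marker, ran from 3828 reads at 100:0 to 130 at 0:100. The 0:100 library had 0 sequin reads, against its label.

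Members took a small and nearly constant part of the RNA. They held 4.22% of the reads on annotated transcripts at 100:0 (95% Wilson interval 4.20 to 4.24), 4.11% at 75:25, 4.04% at 50:50, 3.94% at 25:75 and 3.99% at 0:100 (3.97 to 4.02). The 100:0 library was highest and the 25:75 library lowest, a gap larger than the counting error, while error between libraries could not be measured. Intervals here cover counting error only, since PCR copies count as separate reads. Within the 1737 genes, members held 17.4, 17.4, 17.3, 16.8 and 17.3% of the reads along the series. Protein-coding transcripts of those genes held 70.4, 70.0, 69.9, 70.9 and 69.8%, and transcripts with a retained intron held 9.29, 9.76, 10.0, 9.79 and 10.4%. None of the sums ran in strict order from 100:0 to 0:100.

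Underneath that sum, members of ribosomal protein genes and the other members ran in opposite directions. There were 47 members in 31 ribosomal protein genes (RACK1 and RPL22L1 counted with them). They took 0.963, 1.09, 1.20, 1.34 and 1.48% of all matched reads along the series, in strict order. Outside all ribosomal protein genes with a tested transcript, members took 3.82, 3.63, 3.49, 3.30 and 3.25% of the remaining reads, in strict order downward. Within all ribosomal protein genes with a tested transcript, those without members included, members stayed between 6.35 and 6.56% of the genes' own reads. The mitochondrial share ran upward along the series too, and with mitochondrial transcripts left out of the denominator all members together took 4.48% at 100:0 and 4.39% at 0:100.

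**Figure D2:**
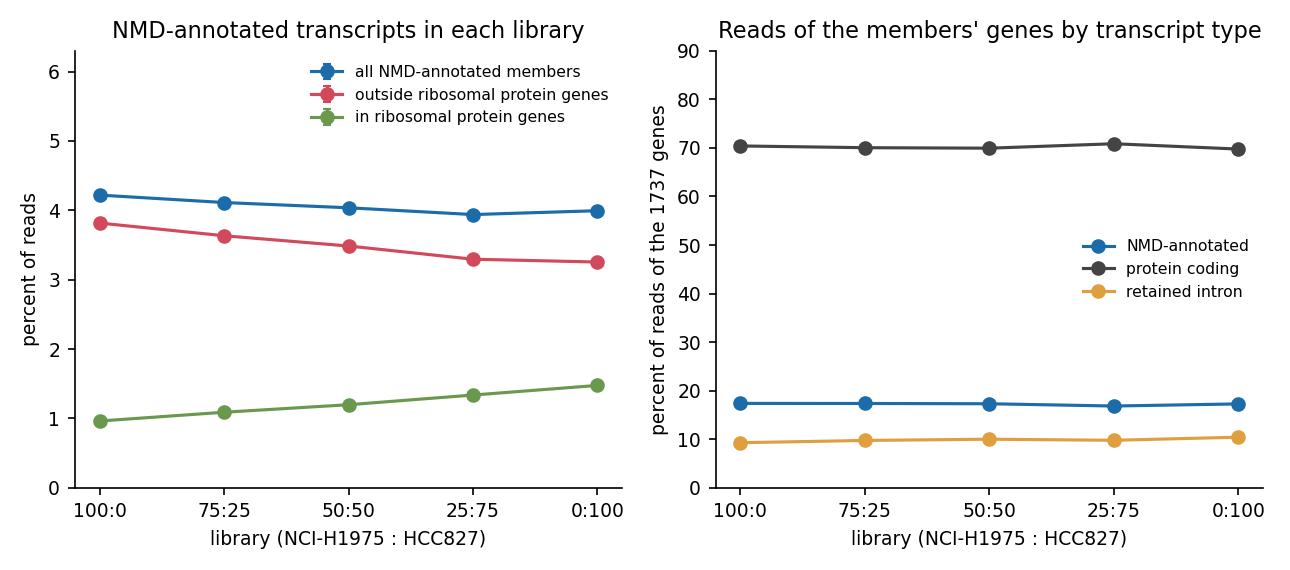
Left, percent of reads on members in each library, for all members, those in ribosomal protein genes (percent of all matched reads) and those outside them (percent of reads outside those genes); right, percent of the reads of the 1737 genes by transcript type. Error bars are 95% Wilson intervals, mostly smaller than the points; the red line runs from 3.82 to 3.25% and the green line from 0.963 to 1.48%.

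The share of a gene's reads on a single member was then set beside that of protein-coding transcripts. Over the 5 libraries together, the median member held 15.7% of its gene's reads (quartiles 7.99 and 27.2), and the median of 4229 tested protein-coding transcripts of the same genes was 18.8% (8.96 and 32.7). Both medians include genes with few reads, where the minimum of 10 reads by itself forces a large share. In genes with at least 100 reads in every library, 1205 members had median shares of 10.4, 10.2, 10.0, 9.55 and 9.88% along the series. There 2769 protein-coding transcripts had medians of 15.0, 14.8, 15.1, 15.1 and 14.6%. In each library the median member thus lay below the median coding transcript of these genes, and neither series of medians ran in strict order.

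Compared within the gene, the median member had 50% of the reads of the main coding transcript. In 298 of 2182 members the member had more reads than that transcript. A share above 50% was seen for 117 members and a share below 5% for 324. For 68 members no protein-coding transcript of the gene was in the tables, and 46 members held 100% of the matched reads of their gene. By distance of the stop from the last junction, median shares were 13.8% for 51 to 200 bases, 14.9% for 201 to 500, 16.9% for 501 to 1000 and 16.7% beyond. The quartiles of these groups overlapped broadly.

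**Figure D3:**
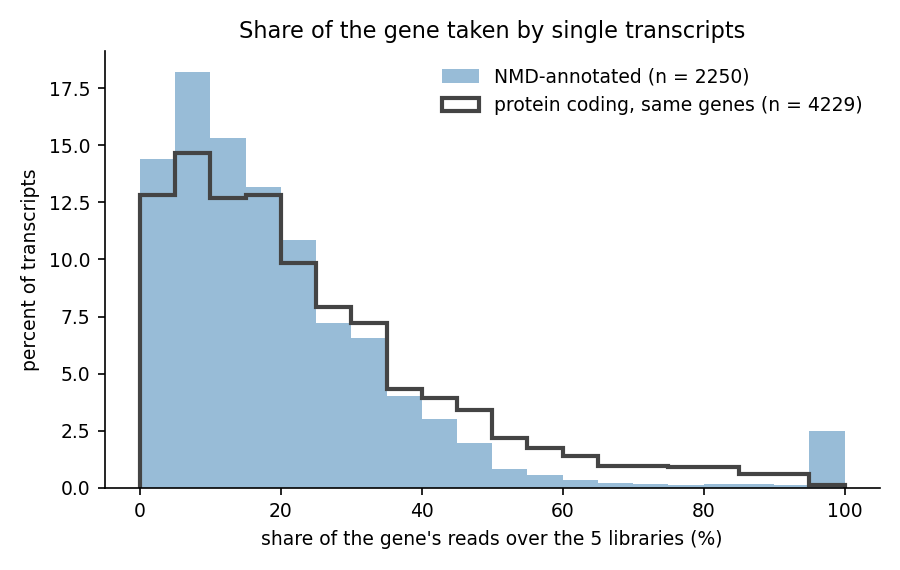
Distribution of the share of the gene's reads (over the 5 libraries, in percent) for 2250 members and for 4229 protein-coding transcripts of the same genes, in bins of 5 points. Members are more frequent at 5 to 10% and form a separate bar at 95 to 100%, while coding transcripts are more frequent from 25 to 95%.

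The members with most reads belonged to ribosomal protein genes, short transcripts for which reads are plentiful. Reads are given per transcript and not per length, so they are not compared between genes as levels. RPS25-206 (chr11:119015712-119018330, minus strand) had 2806, 3765, 3622, 3020 and 2990 reads along the series. It held 44.3 to 45.2% of the reads of RPS25, a protein of the small ribosomal subunit, in every library. Its frame of 39 codons, against 125 in the main coding transcript RPS25-202, ends in a lengthened exon 295 bases before the last junction. RPS25-202 had 1284, 1589, 1582, 1586 and 1453 reads, fewer than the member in each library. RPS25-203, with the same frame length, held 31.2 to 34.7% of the gene. Together the pair held most of the reads assigned to RPS25 in each library. Each of the pair differs from other transcripts by 1 intron and by no base.

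In RPS3, also of the small subunit, 3 members ranked among the top 6. RPS3-216 had 1479, 2474, 2882, 3036 and 3485 reads and 16.2 to 17.1% of the gene. The main coding transcript RPS3-217 had 1689, 2886, 3259, 3525 and 3997. Each rose along the series. The slope, the fitted log2 change from 0 to 100% HCC827, was 1.56 ± 0.12 (SE) for both, with adjusted p = 8.69e-08 (edgeR quasi-likelihood test over the 5 libraries). RPS3-206 and RPS3-218 had slopes of 1.52 and 1.54, and the gene as a whole 1.60. RPL26-211, of a large-subunit gene, carries a cassette exon of 117 bases found in no other annotated transcript, while 314 of its 603 bases lie in exons of another gene model on its strand. It had 2084, 3134, 3025, 2390 and 2291 reads, between 20.3 and 22.0% of RPL26. Its slope of 0.40 ± 0.12 passed (edgeR, adjusted p = 0.0161), close to the 0.46 of the gene. That call was lost without the 100:0 library (adjusted p = 0.241) and under library totals (0.853).

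The largest shares, in genes with at least 100 reads in every library, were mostly those of models that span more than 1 gene. SENP3-EIF4A1-201 (chr17:7563287-7578715, plus strand) joins SENP3, a SUMO protease, to EIF4A1, a translation initiation helicase. It is the sole matched transcript of its gene model and so stood at 100% of 700, 1012, 970, 889 and 861 reads. Of its 3519 bases, 2979 lie in exons of other genes on the same strand. The same held for ENST00000648033 on chromosome 19 (1627 reads, with DHPS), P2RX5-TAX1BP3-201 (786 reads) and ENST00000380361 on chromosome 16 (724 reads, with SRCAP). The next, USP10-202 (chr16:84699995-84779922, plus strand), belongs to USP10, a deubiquitinase, and does not overlap another gene on its strand. It had 176, 195, 209, 164 and 142 reads, 89.3 to 91.2% of the gene. The main coding transcript USP10-201 had 8, 18, 3, 8 and 6. USP10-202 has a frame of 62 codons, against 798, and differs from other transcripts by 1 intron and by no base.

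The levels of members along the series were tested with the slope on the HCC827 mass fraction, fitted over every transcript that passed the minimum. Of 2250 members, 279 rose and 287 fell at an adjusted p under 0.05 (edgeR quasi-likelihood test, Benjamini-Hochberg), 566 in all or 25.2%. Over all 31758 transcripts the share called was 33.6%, with 17.5% rising and 16.1% falling. Protein-coding transcripts of the same genes were called in 1417 of 4229 cases, 33.5%. The members' share was thus below the background. Of the members, 915 reached 10 reads in only 2 to 4 libraries. Among the 1335 that did so in every library, 406 (30.4%) were called when that was required, 215 rising and 191 falling, against 37.4% of all transcripts. Median slopes were -0.08 for members and -0.03 for all transcripts. Scaling by library totals moved the median of all transcripts to -0.40, and 141 members then rose and 558 fell. Under that scaling 38.1% of all 31758 transcripts were called, and 26.9% of those calls were rising. Every direction given here is therefore that under TMM scaling.

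The number of calls followed the number of reads. Members with fewer than 100 reads over the 5 libraries were called in 14.8% of cases, against 20.0% of all transcripts in that range. From 100 to 999 reads the shares were 31.8% and 38.0%, and from 1000 reads 67.7% and 66.5%. Members of ribosomal protein genes accounted for part of the last range, and 34 of those 47 rose and 1 fell, with a median slope of 0.95. Under library totals 22 rose and 1 fell. Without ribosomal protein genes, 245 members rose and 286 fell.

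Members and their main coding transcripts moved together in almost every pair where both were called. A gene with several members can enter with several pairs. The part that reads matching both transcripts of a pair had in this was not tested. Of 2122 pairs with both tested, both rose in 220, both fell in 205 and they moved in opposite directions in 2. The member alone was called in 107 pairs, the coding transcript alone in 381 and neither in 1207. A call of 1 transcript alone does not show that the pair differed.

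The largest rise by slope, among members with at least 100 reads whose scaled levels ran in order, was that of DGCR6-207 (chr22:18906325-18914238, plus strand). It had 19, 357, 502, 499 and 770 reads and a slope of 3.54 ± 0.49 (edgeR, adjusted p = 2.10e-05), or 2.25 without the 100:0 library. It held 45.2% (31.2 to 60.1) of the reads of DGCR6 at 100:0, where the gene had 42 reads, and 87.9, 90.8, 88.8 and 93.8% in the other libraries. The test of its share gave adjusted p = 1.00 (edgeR diffSpliceDGE). The main coding transcript DGCR6-208 had 2, 9, 11, 26 and 23 reads. DGCR6 lies in the DiGeorge syndrome region, and of the member's 3245 bases 675 lie opposite exons of PRODH, the proline dehydrogenase gene, 546 lie in exons of another gene model on its strand and 2150 are in no other annotated transcript. PRODH had 5, 814, 1193, 1293 and 1914 reads and a slope of 4.26, or 2.53 without the 100:0 library. Use of strand in counting is not given in the sources used here, and whether reads of PRODH were counted for DGCR6-207 was not tested.

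LANCL2-202 (chr7:55366111-55431528, plus strand) rose without such an overlap. Its cassette exon of 187 bases, found in no other annotated transcript, ends a frame annotated with 39 codons, and LANCL2 encodes a glutathione-binding protein of the LanC-like family. It had 20, 108, 150, 201 and 224 reads, lowest in the 100:0 library and highest in the 0:100 library. The slope was 3.01 ± 0.31 (edgeR, adjusted p = 8.58e-07), beside 3.22 for the coding LANCL2-201, which had 37, 330, 446, 504 and 632 reads. LANCL2-202 held 34.5, 24.7, 25.0, 28.3 and 26.1% of the gene. TJP3-203, of a tight junction scaffold gene, had 10, 18, 34, 38 and 57 reads and a slope of 2.85. TM7SF2-214, of a sterol reductase gene, had 9, 12, 29, 22 and 41 reads and a slope of 2.58.

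In the other direction, VIM-203 and VIM-206 (chromosome 10, plus strand) fell with VIM, the intermediate filament gene. VIM-203 had 823, 793, 504, 212 and 27 reads, highest in 100:0 and lowest in 0:100, and a slope of -3.39 ± 0.41 (edgeR, adjusted p = 4.58e-06). VIM-206 had 760, 747, 523, 208 and 23 reads, and the coding VIM-209 had 1155, 1034, 704, 299 and 37. VIM-203 held 20.7 to 22.0% of the gene in every library. Its lengthened exon adds 1061 bases that no other transcript has, whereas VIM-206 has no base and no intron of its own. ANGPTL4-203, of a gene for a lipoprotein lipase inhibitor, keeps the frame of 406 codons of ANGPTL4-201 and has 1 junction after the stop. It had 68, 50, 30, 16 and 3 reads and a slope of -3.10. ENST00000550554 on chromosome 14 had 113, 106, 67, 17 and 5 reads and a slope of -3.30, and all of its 613 bases lie in exons of other genes on its strand. CRIP1, a LIM-domain gene there, had 852, 755, 441, 213 and 35 reads and a slope of -3.23. Without the 0:100 library the slopes of VIM-203 and VIM-206 were -2.25 and -2.06, against -3.39 and -3.30 with it. TPM4, a tropomyosin gene singled out after its values were seen, had 9 members, of which 2 reached 10 reads in every library and the others passed the minimum through part of the series. Of those 2, TPM4-219 had 81, 61, 35, 28 and 24 reads and TPM4-222 had 75, 50, 47, 25 and 12.

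**Figure D4:**
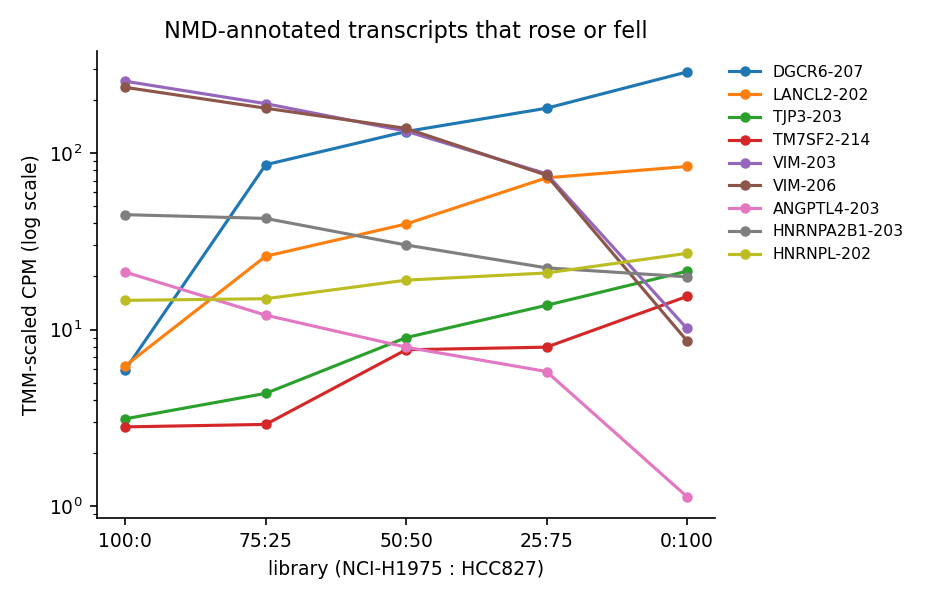
Level of 9 members in each library as TMM-scaled CPM (log scale), with the libraries in mixture order. DGCR6-207 and LANCL2-202 climb most between the 100:0 and 75:25 libraries, and VIM-203, VIM-206 and ANGPTL4-203 drop most between the 25:75 and 0:100 libraries.

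Whether a member's share of its gene changed was tested against the other transcripts of the gene. Of 2164 members in genes with at least 2 tested transcripts, 3 were called at an adjusted p under 0.05 (edgeR diffSpliceDGE), 1 up and 2 down. Over all 26268 transcripts of such genes the share called was 0.152%. At an unadjusted p under 0.05 there were 78 members, 3.60%, against 3.55% of all transcripts. Protein-coding transcripts of the same genes gave 5 calls among 4229. The members' count was therefore near the background. A strict order of shares through all 5 libraries was seen for 52 of 2164 members, 21 upward and 31 downward, or 2.40% against 2.9% of all transcripts.

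A second test set the summed reads of members and other transcripts with the decay label against the summed protein-coding reads of each gene. It called 3 of 1793 genes, 0.167%, and 133 genes, 7.42%, had an unadjusted p under 0.05 (edgeR diffSpliceDGE, gene-level F test). The genes were SUN1, TMEM219 and MMP24OS, of which SUN1 and TMEM219 also had a member called for its share. All members and genes that passed either test are described next.

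SUN1 encodes a protein of the inner nuclear membrane that links the nucleus to the cytoskeleton. SUN1-222 (ENST00000457861.1, chr7:851950-896435, plus strand, 2975 bases) had 62, 91, 91, 84 and 88 reads along the series. SUN1 as a whole had 317, 404, 339, 226 and 192 reads. The share of SUN1-222 was 19.6% (95% Wilson interval 15.6 to 24.3), 22.5%, 26.8%, 37.2% and 45.8% (38.9 to 52.9). It stood higher in each library with more HCC827, and the intervals of the ends did not overlap. The share changed by 1.25 on the log2 scale relative to the gene (edgeR diffSpliceDGE, adjusted p = 0.00305). The summed protein-coding reads of SUN1 were 168, 208, 158, 91 and 58, and the balance test gave adjusted p = 2.80e-04 (edgeR diffSpliceDGE). SUN1-222 itself rose by 0.81 ± 0.22 while the gene fell by 0.40 (edgeR, adjusted p = 0.00837 and 0.0269). The slope call of SUN1-222 was lost without 100:0 (0.0560) or 0:100 (0.0661), under library totals (0.122) and with DESeq2's Wald test (0.0695). That of the gene was lost without 75:25 (0.0645) or 0:100 (0.188) and with DESeq2's Wald test (0.102).

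SUN1-222 runs past the end of SUN1 into GET4, a gene of the pathway that inserts tail-anchored membrane proteins. Of its 2975 bases, 1842 lie in GET4 exons, including the exon with the stop codon printed above. It has 2 introns and no base that no other transcript has. GET4 had 168, 229, 206, 202 and 193 reads and rose with a slope of 0.60 ± 0.16 (edgeR, adjusted p = 0.00926), a call lost without 0:100 (0.0610) and under library totals (0.367). The values of SUN1-222 thus moved in the direction of GET4 and against that of SUN1. Whether reads of GET4 were assigned to SUN1-222 was not tested. The share call was lost without the 25:75 library (adjusted p = 0.0737, edgeR diffSpliceDGE) and without the 0:100 library (0.349). With at least 10 reads required in every library, the adjusted p was 0.112. The balance call was lost without the 0:100 library (0.116) and held in the other 4 fits that each left out a library.

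TMEM219 encodes a membrane protein described as a receptor for the growth factor binding protein IGFBP3. TMEM219-207 (chr16:29962111-29973048, plus strand) had 66, 70, 64, 47 and 34 reads. Its share was 30.3% (24.6 to 36.7), 24.2%, 19.3%, 17.7% and 11.8% (8.57 to 16.0), lower in each library with more HCC827. The intervals of the ends did not overlap. The coding TMEM219-202 had 69, 97, 125, 103 and 124 reads and 31.7, 33.6, 37.7, 38.7 and 43.1% of the gene. Both transcripts were annotated with 240 codons and the same stop, printed above, after which TMEM219-207 has 2 junctions. TMEM219-207 holds 99 bases and 2 introns that no other transcript has, and no exon of another gene.

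The share of TMEM219-207 changed by -1.25 on the log2 scale (edgeR diffSpliceDGE, adjusted p = 0.0319), and the balance of TMEM219 passed at adjusted p = 0.00876. Its own slope of -0.52 ± 0.27 did not pass (edgeR, adjusted p = 0.147), while TMEM219-202 rose by 1.17 and the gene by 0.78. The share call was lost in each of the 5 fits that left out 1 library, with adjusted p from 0.0512 without 50:50 to 0.939 without 0:100 (edgeR diffSpliceDGE). The balance call held without 50:50 or 25:75. It was lost without 100:0 (0.503), 75:25 (0.0575) or 0:100 (0.237).

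RBMX, on the X chromosome, encodes an RNA-binding protein that takes part in splicing. RBMX-208 (chrX:136877916-136880725, minus strand) had 43, 53, 44, 10 and 15 reads of 3801 on the gene over the series. Its share was 6.69% (5.00 to 8.89), 5.43%, 4.80%, 1.68% and 2.24% (1.36 to 3.66). The 25:75 and 0:100 libraries lay below the other 3. The change relative to the gene was -1.76 on the log2 scale (edgeR diffSpliceDGE, adjusted p = 0.0306), and the transcript's own slope was -1.55 ± 0.42. The coding RBMX-201 had 113, 153, 159, 110 and 134 reads and 15.7 to 20.0% of the gene. The frame of RBMX-208 ends after 37 codons, against 391, in a lengthened exon. The call held without 50:50 (adjusted p = 0.0452) and was lost without 100:0, 75:25, 25:75 or 0:100, with adjusted p from 0.191 to 0.366 (edgeR diffSpliceDGE).

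MMP24OS lies on the strand opposite MMP24 and PROCR and encodes a short protein. MMP24OS-203 (chr20:35276361-35278027, minus strand) had 47, 100, 84, 104 and 103 reads and 17.0% (13.0 to 21.8), 28.0%, 27.2%, 35.9% and 37.5% (31.9 to 43.3) of the gene. The 100:0 library was lowest, and the order broke between 75:25 and 50:50. The coding MMP24OS-209, with the same frame of 71 codons, had 155, 173, 178, 145 and 134 reads. MMP24OS-203 rose by 1.32 ± 0.25 (edgeR, adjusted p = 4.34e-04), and the balance test gave 0.0484, just under the threshold. Its share test did not pass (0.214). The balance call was lost in each fit that left out a library (0.0575 to 0.894). MMP24 on the other strand had 49, 77, 112, 110 and 129 reads and a slope of 1.82. PROCR had 201, 205, 212, 144 and 63 reads and a slope of -0.86, not called without 0:100 (-0.21). Exons of opposite-strand genes cover 638 bases of MMP24OS-203, and whether reads of those genes were counted for it was not tested.

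**Figure D5:**
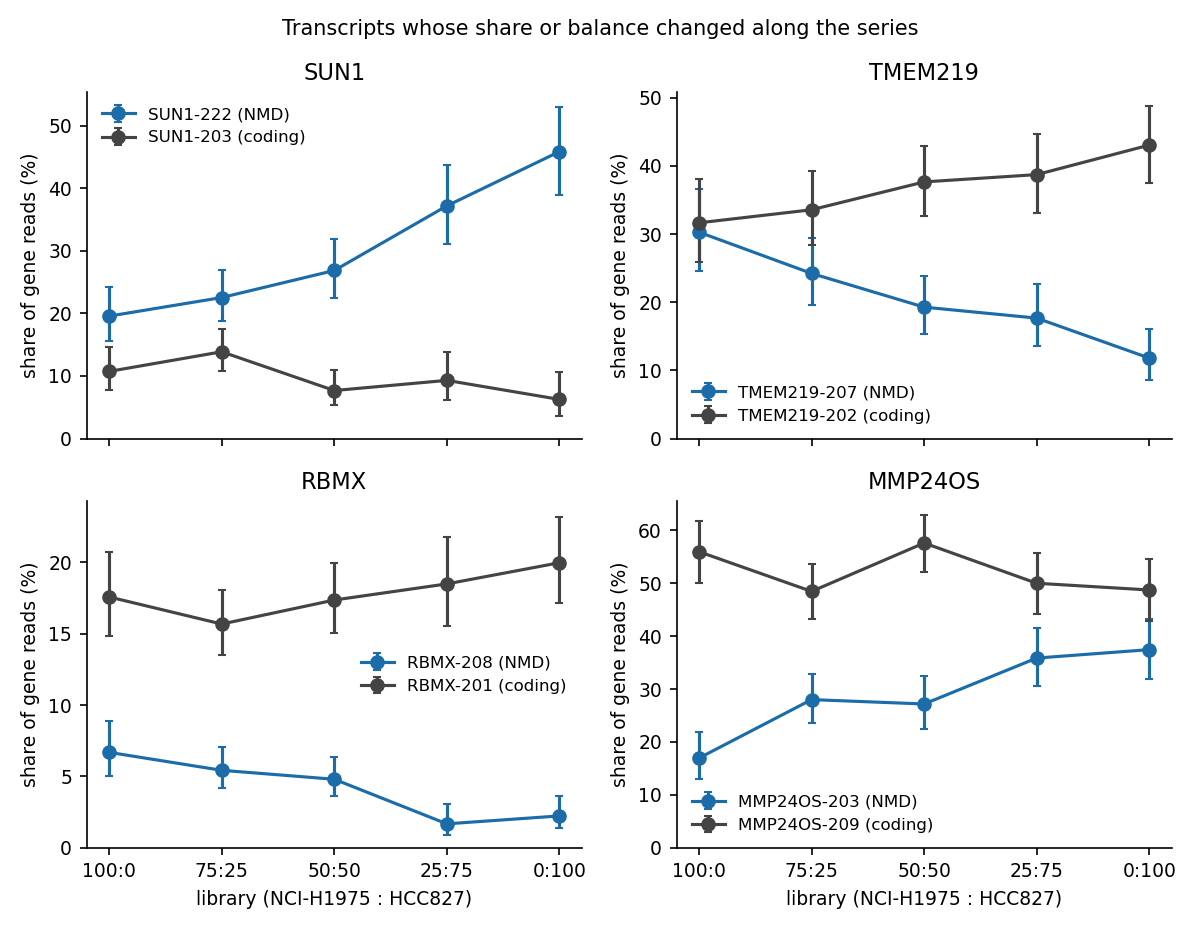
Share of the gene's reads (percent, with 95% Wilson intervals for counting error) in each library for the members of SUN1, TMEM219, RBMX and MMP24OS (blue) and the main coding transcript of each gene (grey). SUN1-222 goes from 19.6 to 45.8% and TMEM219-207 from 30.3 to 11.8%, while the coding transcripts shown go from 10.7 to 6.25% and from 31.7 to 43.1%.

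Genes that encode the machinery of the pathway were measured as gene sums. Of 15 decay factors, 3 rose and 1 fell (edgeR quasi-likelihood test), against 23.5% rising and 22.3% falling, 45.7% in all, among 13492 genes. UPF1, the central helicase, had 260, 261, 293, 232 and 228 reads and a slope of 0.28 ± 0.17 that did not pass (edgeR, adjusted p = 0.192). UPF2, the adaptor between UPF1 and UPF3B, fell from 197 reads at 100:0 through 220, 177 and 116 to 55 at 0:100, with a slope of -1.19 ± 0.24 (edgeR, adjusted p = 0.00138), or -0.69 without 0:100. UPF3B, which binds the exon junction complex, had 124, 238, 223, 157 and 194 reads and rose by 0.75. That call was lost without 100:0 (edgeR, adjusted p = 0.127) or 0:100 (0.0849) and under library totals (0.166). SMG5, which recruits decay enzymes, had 237, 430, 413, 369 and 426 reads and rose by 1.08 ± 0.14. DHX34, a helicase that acts with UPF1, had 26, 33, 60, 51 and 51 reads and rose by 1.51. The median slope of the list was -0.05 and that of all genes -0.03. Under library totals, where the median gene moved to -0.45, 2 of the 15 rose and 7 fell. The share of all genes called under that scaling was not counted. Of all 31758 transcripts 38.1% were called there, and 26.9% of those calls were rising.

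Among 7 genes of the exon junction complex and its cofactors, CASC3 rose by 1.38 and EIF4A3 by 0.75 and none fell at this threshold, where 45.7% of all genes were called. Of 13 genes for decapping, deadenylation and exonuclease digestion, SKIC2 rose by 0.86, DCP1B rose by 1.53 and CNOT7 fell by 0.50. These 3 calls among 13 genes were a smaller share than that 45.7%, a difference that was not tested. The calls of SKIC2, DCP1B and CNOT7 were lost without 0:100 (edgeR, adjusted p = 0.314, 0.0602 and 0.0726), that of DCP1B also without 25:75 (0.0709), and that of EIF4A3 without 100:0 (0.457) or 25:75 (0.0612). Under library totals, where the median gene moved to -0.45, the complex had 1 gene rising and 2 falling. The enzymes then had 0 rising and 5 falling. The calls of EIF4A3, SKIC2 and DCP1B were lost under that scaling (edgeR, adjusted p = 0.263, 0.136 and 0.0679). The factors and the complex held 2 members between them, both with a cassette exon. DHX34-202 had 5, 7, 18, 11 and 10 reads and 23.1% of its gene. MAGOHB-208 had 21, 25, 25, 12 and 10 reads and 19.9% of its gene. Neither passed the slope test (edgeR, adjusted p = 0.133 and 0.220).

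Splicing regulators and ribosomal protein genes known for poison exons or similar feedback formed a list of 27 genes, of which 6 rose and 5 fell as genes, against 23.5% and 22.3% of all genes, so that the counts lay near the background. Under library totals, where the median gene moved to -0.45, 5 rose and 12 fell, and the share of all genes called was not counted. The ribosomal protein genes RPL12, RPL10A and RPL3 rose by 1.57, 1.15 and 0.97 and the splicing repressor PTBP1 by 0.76, and none of these 4 had a member. HNRNPH1 and HNRNPA2B1 fell by 0.93 and 0.69, and SRSF1 and SRSF10, of the SR family, by 0.46 and 0.50. The calls of SRSF1 and SRSF10 were lost without 0:100 (edgeR, adjusted p = 0.169 and 0.256), that of SRSF1 also without 75:25 (0.0513) and that of SRSF10 without 100:0 (0.117). Of these genes, 13 had 22 members, with a median share of 6.56% (from 1.53 to 20.2%), 9 of them with a cassette exon. By slope 1 of the 22 members rose and 2 fell, where 25.2% of members and 33.6% of all transcripts were called, and 0 were called for a change in share, where 0.152% of all transcripts were. HNRNPL-202, the poison exon transcript printed above, belongs to a splicing repressor gene and had 47, 62, 72, 58 and 72 reads. It rose by 0.92 ± 0.25 (edgeR, adjusted p = 0.00824), as HNRNPL did by 0.78, and it held 10.3, 7.97, 9.36, 9.15 and 11.1% of the gene. The 0:100 library was highest and 75:25 lowest, and the call was lost without the 0:100 library (adjusted p = 0.140), under library totals (0.0899) and with DESeq2's Wald test (0.0751). Exons of another gene on its strand cover 561 of its 1952 bases.

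HNRNPA2B1-203 (chr7:26190125-26200746, minus strand) fell in a gene for an abundant RNA-binding protein. It had 144, 177, 114, 62 and 53 reads and a slope of -1.31 ± 0.22 (edgeR, adjusted p = 1.22e-04). HNRNPA2B1 as a whole fell by 0.69 and the coding HNRNPA2B1-201 by 0.65. The member held 6.37, 6.88, 5.21, 4.31 and 4.97% of the gene, and the test of its share gave adjusted p = 1 (edgeR diffSpliceDGE). Its frame of 353 codons is as long as that of HNRNPA2B1-201, and the 2 junctions after the stop lie in the 3' untranslated region. HNRNPH1-218 had 50, 59, 51, 31 and 22 reads and 4.78 to 5.54% of its gene. Its slope of -0.81 ± 0.30 was at the edge of the threshold (edgeR, adjusted p = 0.0465) and did not pass in any of the fits without 1 library except that without 50:50.

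SRSF7 encodes a splicing activator of the SR family and had 4 members. SRSF7-204, printed above, had 44, 65, 52, 40 and 45 reads and 14.2, 17.8, 16.0, 16.7 and 20.6% of the gene, beside 18.8 to 23.9% for the coding SRSF7-201. Its slope was 0.18 ± 0.28 (edgeR, adjusted p = 0.650). U2AF1-205, of the factor that reads the 3' splice site, held 11.8 to 17.3% of its gene, and HNRNPDL-202, SRSF2-208 and HNRNPD-211 held 5.90 to 12.0%, 7.37 to 12.2% and 4.30 to 5.49%. None of these 4 passed the slope test, with adjusted p from 0.0905 to 0.887 (edgeR). SRSF7-204, HNRNPA2B1-203, HNRNPD-211, SRSF2-208, U2AF1-205 and HNRNPDL-202 have no base and no intron of their own.

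A list held 11 genes known as natural targets of the pathway, such as ATF4 and GAS5. Of these, 4 rose and 3 fell, beside 23.5% and 22.3% of all genes. Under library totals, where the median gene moved to -0.45, 3 rose and 5 fell, and the share of all genes called was not counted. ATF4, a stress-response transcription factor, rose by 0.83, GAS5, a host gene of small nucleolar RNAs, by 1.10 and SNHG1, another such host gene, by 0.71. SMG5, which is also a decay factor, was the other gene that rose. The call of SNHG1 was lost under library totals (edgeR, adjusted p = 0.188). UPP1, TBL2 and GADD45B fell by 0.69, 0.69 and 0.91, the call of TBL2 being lost without 100:0 (adjusted p = 0.0735). Only 2 of the 11 genes had members, 4 in all. UPP1-202 had 283, 270, 259, 160 and 139 reads and UPP1-205 had 264, 311, 218, 157 and 144. Both fell with UPP1, a uridine phosphorylase gene, with slopes of -0.68 and -0.66 (edgeR, adjusted p = 0.00510 and 0.00546), calls lost without the 100:0 library (0.152 and 0.0576). Each ends its frame after 36 codons, against 310 in the main coding transcript. UPP1-202 and UPP1-205 have no base or intron of their own and held 17.7 and 17.4% of the gene.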

How the data were processed

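Expression in the 5 libraries was read from the authors' deposited tables, which give an estimated count of reads per transcript and a transcript length. Per the submitters' processing notes, minimap2 2.24, Salmon 1.9.0 and the build GRCh38 were used, with no role stated; the annotation release and use of strand are not given in the sources used here. Counts were unscaled, with totals from 2932250 to 4058751. The 2 values that were not whole were rounded, and the 161 identifiers listed more than once were summed. Identifiers were matched to GENCODE v44, which may not be the authors' release: 224076 of 227751 human transcripts matched, and 3675 did not and entered transcript tests and scaling only. The length in the tables equalled that in v44 for 2163 of the 2250 members. Stop positions, exon overlaps and sequences were computed from the v44 annotation and GRCh38, 1-based.

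Transcripts and gene sums with at least 10 reads in at least 2 libraries were fitted with edgeR 4.0.16 (R 4.3.3), TMM scaling and a quasi-likelihood F test on the HCC827 mass fraction as covariate, whose coefficient is the slope in log2 units. A mixture is linear in expression, so a slope on the log scale understates large differences. Changes in share came from diffSpliceDGE of edgeR, at transcript level, and at gene level for summed decay-labelled against summed protein-coding reads. P-values were adjusted by Benjamini-Hochberg over all features tested, with a threshold of 0.05. The scatter about the trend was a biological coefficient of variation of 9.06% for transcripts and 9.11% for genes. That scatter arises among mixtures of the same RNAs and says nothing of other cultures. Shares have 95% Wilson intervals. Sums over members, medians and shares in order were given no test. Alternatives were DESeq2 1.42.0, limma 3.58.1 (voom and diffSplice), other scalings and filters, the estimated HCC827 share of reads as covariate, and fits without 1 library each.

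The members and gene lists were chosen with earlier results of these data known. Named members are those past the share test, the 6 with most reads, the 5 with the largest share in genes with at least 100 reads in every library, and the 8 with most reads in the lists of decay factors and poison exon genes. The rule adds, in each direction, the 4 with the largest slope among those past the threshold, in order along the series and with at least 100 reads, and the genes past the balance test. Each stands beside its main coding transcript. List genes named are UPF1 and those past the threshold, at most 4 in each direction by p. Members of TPM4, UPP1, MAGOHB and DHX34 were named outside this rule, after their values were seen.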

Additional observations from a re-analysis of the deposited data

How the results depend on the processing

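Each ratio had 1 library, so calls rest on single libraries. Of the 566 members with a slope, 281 passed under DESeq2's Wald test. That test called 19.1% of all transcripts, against 33.6% in the main fit. Fits that each left out 1 library called 304 to 542 members, not all of them among the 566. The count was lowest without 0:100 (304, of which 276 were main calls) and without 100:0 (317, of which 293 were). Of all transcripts, 20.1% were called without 0:100 and 21.8% without 100:0. Share calls went from 3 to between 0 and 2, with 0 without 25:75 or 0:100, where 58 and 76 members had an unadjusted p under 0.05 (edgeR diffSpliceDGE), and 0 of the main calls held in all 5 fits. The 3 balance calls became 1 to 2, and the single call without 0:100 was of another gene. Without members covered by another gene's exons, the share and balance tests each kept 2 calls. Decay factors with a slope numbered 4 to 5 over the fits that each left out 1 library. Under library totals, where the median gene moved to -0.45, they numbered 9. Shares in strict order numbered 34 in genes with at least 100 reads in every library, where 1200 members were tested.

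The median share was 18.1% of protein-coding and decay-labelled reads alone, and 9.92% in genes with at least 100 reads in every library. It was 16.1% for members with an intron or bases of their own and 14.9% without members in exons of another gene. These last 2 settings, and that without ribosomal protein genes, were chosen after the data were seen. The percent of reads on members at 100:0 and 0:100 was 4.39 and 4.11 of tested transcripts, 4.61 and 4.27 with no minimum of reads, 3.66 and 3.17 without the 10 members with most reads, and 4.48 and 4.39 without mitochondrial reads. It was 3.22 and 3.07 for members with an intron or bases of their own, 3.58 and 3.36 without members in exons of another gene, and 3.82 and 3.25 without ribosomal protein genes. In each of these 7 settings the 100:0 library was higher. The cause of the shifts was not tested. For members named by rule, only slopes and share changes past the threshold in the main fit were followed. Alternatives that gave no adjusted p for them were left out. Of the 250 values under alternatives that remained, 214 kept direction and call and 36 kept direction alone. Of 33 p-values of the 3 balance calls, 11 passed the threshold no longer. For 33 genes named as rising or falling, 334 of 362 slopes kept both and 28 lost the call, 9 of them without 0:100 and 7 under library totals. No paired analysis was possible because each ratio has 1 library.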
